A study of Mus musculus with 11 samples.

Results

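Genes of matrix and cell surface proteoglycans were followed through 11 OvTrpMyc cell lines. They were taken from a list of 10 names, and all 10 were found among the 28284 genes of the count table: the small leucine-rich genes Dcn, Bgn, Lum, Fmod, Prelp, Ogn, and Aspn, the large proteoglycans Vcan and Hspg2, and the cell surface gene Sdc2. The lines were grown from mice of the genotype Ovgp1-Trp53-R270H-Myc on a C57BL/6 background, in which a fragment of the Ovgp1 promoter drives mutant p53 and c-Myc from a transgene placed at one Trp53 allele. Ovgp1 is a secretory gene of the oviduct, and the model was built to place both proteins in the fallopian tube epithelium. An ovary, excised with its fallopian tube, gave 7 of the lines (F318 ROV and LOV, F364 ROV and LOV, and the ROV lines of F319, F326, and F339), where ROV and LOV were read as right and left ovary. The uterus gave 2 lines, of mice F319 and F333. A peritoneal tumor of F361 and a splenic tumor of F326 gave 1 line each. No line received a treatment, the labels describe the cells as actively dividing in RPMI medium, and no line without the transgene was included. According to the study's methods, F361 had not kept expression of the mutant p53. The ages of the mice were not given in the sources used here. Each line was sequenced as 1 library, and 4 of the 7 mice (F364, F326, F319, and F318) are represented by 2 lines. A p-value here therefore measures only the spread between lines, which are not all independent.

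A proteoglycan is a core protein that carries long sulfated sugar chains, the glycosaminoglycans, which hold water and bind growth factors. The small leucine-rich members sit on collagen fibrils and control their assembly and thickness, versican binds hyaluronan in loose and provisional matrix, and perlecan, the product of Hspg2, is a heparan sulfate proteoglycan of basement membranes. Syndecan-2, the product of Sdc2, spans the cell membrane. In tumors of the ovary and uterus, most small leucine-rich members are known as products of stromal fibroblasts, and versican as a product of both stroma and cancer cells.

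Upstream sequence is shown for 4 members, because the 2 pairs lie on opposite sides of the median base composition of all windows. Bgn and Hspg2 were richer in G and C. The neighbors Aspn and Ogn, whose levels moved together across the lines, were poorer. RefSeq windows on GRCm38 were matched by symbol for 7 of the 10 members. Each sequence is on the plus strand, 5′ to 3′, and ends before the annotated start of the gene. Capitals mark GGGCGG and TATAAA on either strand, the cores of the elements bound by Sp factors and by the TATA-binding protein. The windows are Bgn at chrX:73483351-73483600, Hspg2 at chr4:137468553-137468768, Aspn at chr13:49544193-49544442, and Ogn at chr13:49607765-49608014.
Bgn: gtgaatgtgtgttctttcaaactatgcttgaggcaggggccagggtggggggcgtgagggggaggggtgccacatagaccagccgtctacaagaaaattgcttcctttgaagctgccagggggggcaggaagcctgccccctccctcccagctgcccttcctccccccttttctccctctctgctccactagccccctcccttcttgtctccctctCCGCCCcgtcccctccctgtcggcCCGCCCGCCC
Hspg2: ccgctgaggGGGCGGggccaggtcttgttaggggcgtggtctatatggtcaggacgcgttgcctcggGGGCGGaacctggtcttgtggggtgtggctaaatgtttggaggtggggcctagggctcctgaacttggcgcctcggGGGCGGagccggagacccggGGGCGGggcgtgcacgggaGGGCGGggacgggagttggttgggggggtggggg
Aspn: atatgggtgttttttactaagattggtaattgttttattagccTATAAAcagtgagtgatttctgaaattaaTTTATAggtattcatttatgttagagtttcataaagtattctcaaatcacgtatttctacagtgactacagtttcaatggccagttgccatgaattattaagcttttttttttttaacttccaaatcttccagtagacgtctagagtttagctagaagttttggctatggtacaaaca
Ogn: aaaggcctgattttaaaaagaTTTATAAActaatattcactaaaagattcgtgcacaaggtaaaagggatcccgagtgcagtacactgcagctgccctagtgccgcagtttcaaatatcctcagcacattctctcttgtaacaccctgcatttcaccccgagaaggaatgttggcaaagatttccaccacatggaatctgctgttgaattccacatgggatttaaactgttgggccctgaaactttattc
G and C made up 64.4% of the Bgn window, 30.0% of that of Aspn, and 42.0% of that of Ogn, each of 250 bases. For Hspg2, the last 34 of the 250 bases lie within the annotated gene and are not shown. G and C made up 70.8% of the 216 bases shown and 70.0% of all 250. The median of all 32851 windows was 52.4%. GGGCGG matched at 3 positions upstream of Bgn, at 5 upstream of Hspg2, and at 2 upstream of Vcan, whose window is not shown, and 32.7% of all windows held it. TATAAA matched at 2 positions upstream of Aspn, at -207 and -178 from the RefSeq start. Upstream of Ogn it matched at 2 overlapping positions on opposite strands, -229 and -227. Whether any match acts as an element of these promoters was not tested. Of all windows, 12.4% held TATAAA. The E-box CACGTG (in 6.02% of all windows) and the AP-1 type motif TGANTCA (in 6.75%) had no match in any of the 7 member windows on either strand.

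The libraries held 13580525 to 27044598 counts on genes. A level of 3 counts, taken as the floor of detection, corresponds to 0.111 to 0.221 CPM, or counts scaled to a library total of 1000000. The libraries fell into 2 sets by the number they carry in the labels. In S1 to S7 (F364 ROV, F326 splenic tumor, F364 LOV, F326 ROV, F361 peritoneal tumor, F319 ROV, and F318 ROV, in this order), a list of skeletal muscle fiber genes, of which 21 of 22 were found, took 7.14% to 12.9% of the counts. In S8 to S11 (the lines F339 ROV and F318 LOV, then the uterus lines of F319 and F333), it took 0.224% to 1.23%. The sums of 4 Y-linked genes were 128 to 174 CPM in S1 to S7 and 1.75 to 19.2 CPM in S8 to S11, although the lines came from female organs. What the library numbers stand for was not given in the sources used here, and the split was known from earlier results of these data. Both uterus lines lie in S8 to S11 and both tumor lines in S1 to S7, so that origin and library set are partly confounded. The labels call the cells ovarian cancer, while epithelial genes were at or near 0 in most lines. Epcam reached at most 2.12 CPM, Pax8, a marker of fallopian tube secretory cells, at most 3.04 CPM, and Muc16 at most 5.06 CPM. Krt8 and Krt18 were highest in F319 ROV, at 52.7 and 67.9 CPM, and Krt7 in the F333 uterus line, at 40.5 CPM. In bulk RNA, fewer cells of a type and less RNA per cell cannot be told apart.

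Summed over the 10 genes, proteoglycan transcripts made up 641 to 2277 CPM in S1 to S7 and 4239 to 5257 CPM in S8 to S11, with a median of 1558 CPM over the 11 lines. The make-up differed as well as the amount. Levels of different genes were compared as RPKM, the CPM divided by the exon length in kilobases. Dcn had the highest median in S1 to S7 at 43.9 RPKM, followed by Hspg2 at 23.3 and Bgn at 20.7 RPKM. The ranges of these genes overlapped, with 27.4 to 55.4 RPKM for Dcn and 13.6 to 43.8 RPKM for Hspg2, and Vcan was lowest with a median of 0.754 RPKM. In S8 to S11, Bgn led with a median of 481 RPKM and did not overlap Sdc2, which came next at 96.2 RPKM and overlapped Hspg2 at 72.3 RPKM. Dcn there had a median of 4.02 RPKM, and Lum was lowest at 0.339 RPKM. As a share of the summed RPKM of the 10 genes, Dcn took 47.7% in F364 ROV, 8.40% in F318 ROV, and 0.256% to 0.702% in S8 to S11. Bgn took 3.99% in F326 ROV and 75.0% in the F333 uterus line.

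**Figure D1:**
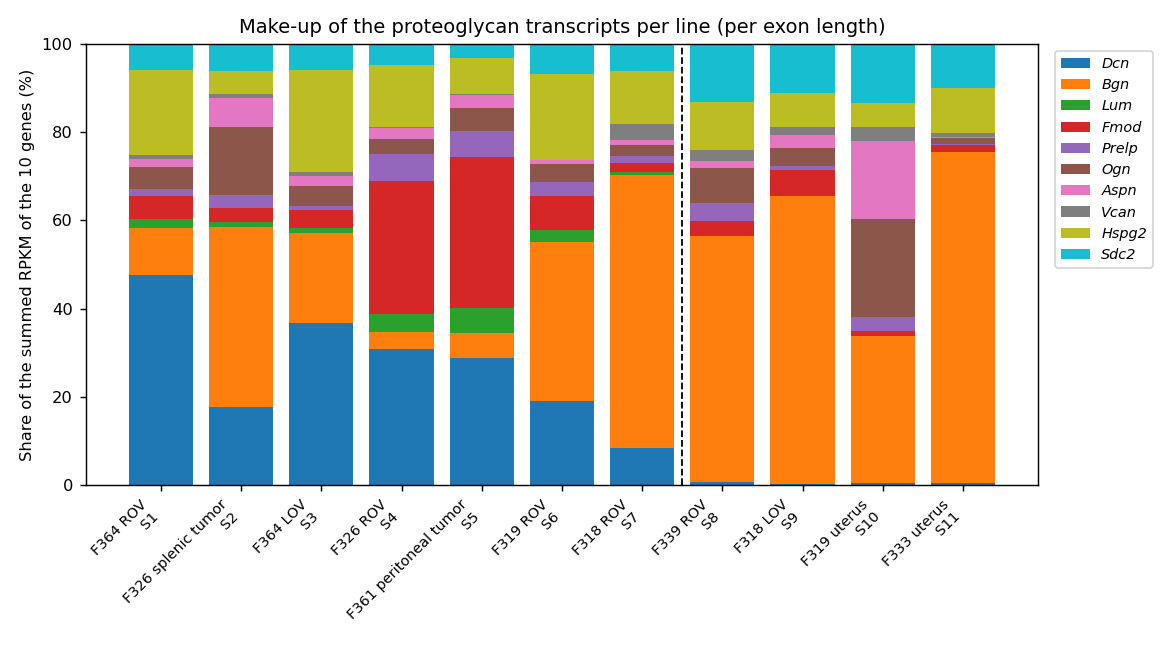
The stacked bars give each gene's share of the summed RPKM of the 10 proteoglycan genes (percent) in each of the 11 lines, with libraries S1 to S7 left of the dashed line. Dcn falls from 47.7% in F364 ROV to under 1% in every line to the right of the dashed line, Fmod takes 30.3% in F326 ROV and 34.3% in F361, and Bgn takes 33.3% to 75.0% in S8 to S11.

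**Figure D2:**
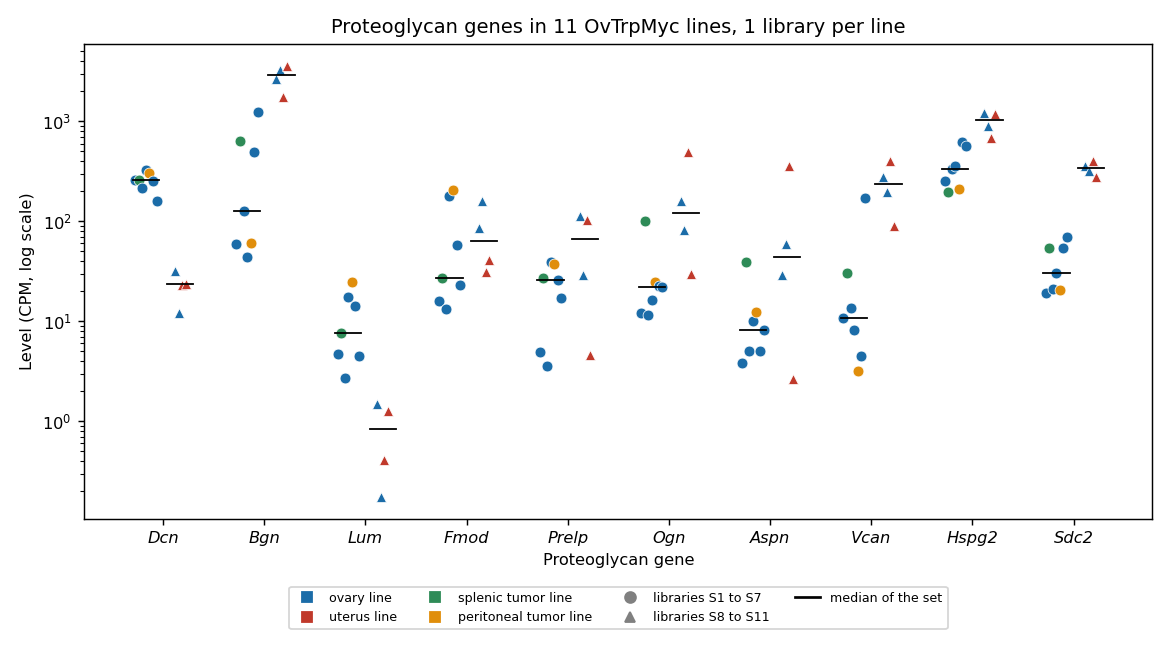
Each point is the level of one gene in one line (CPM, log scale), with circles for libraries S1 to S7, triangles for S8 to S11, colors for the origin of the line, and a bar at the median of each set. Dcn and Lum are higher in all circles than in all triangles, Bgn, Hspg2, and Sdc2 are lower, and the sets overlap for the other genes.

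The first comparison followed the 10 genes across the library sets, a split by library number and not by a condition of the study. Between S8 to S11 and S1 to S7, 8 of 10 genes passed an adjusted p under 0.05 with edgeR, 6 higher and 2 lower in S8 to S11. Of all 15954 genes tested, 58.5% passed, 28.6% higher and 29.9% lower, so that a call by itself sets a proteoglycan gene little apart. The median log2 difference was 1.68 over the 10 genes and 0.025 over all genes tested. For 5 of the 10 genes the sets did not overlap in CPM, 3 higher and 2 lower in S8 to S11, which was also the case for 43.1% of all genes, 26.1% higher and 17.1% lower. With library totals in place of TMM scaling, the median over all genes moved to 0.40 and the calls from 4568 higher and 4769 lower to 6080 higher and 3734 lower, while the same 8 genes passed in the same directions. Mice F318 and F319 gave a line to each set, and a fit with mouse as a block, added after the data were seen, rests on these 2 pairs. The pair of F319 is also an ovary line against a uterus line, so its organ and library set cannot be told apart. The fit left 3 residual degrees of freedom. In that fit 4 of the 10 genes passed, Aspn and Sdc2 higher and Dcn and Lum lower in S8 to S11, among 19% of all genes (5.45% higher and 13.5% lower).

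Among the class I small leucine-rich genes, Dcn encodes decorin, which binds type I collagen and holds TGF-beta, and lies at chr10:97479609-97518143 of GRCm38. It was at 256, 261, 215, 323, 304, 250, and 160 CPM in S1 to S7. In S8 to S11 it was at 31.8, 12.1, 23.3, and 23.6 CPM. Every line of the first set was above every line of the second, and the lowest level, in F318 LOV, stood beside 160 CPM in the other ovary line of the same mouse. The log2 difference was -3.87 ± 0.35 (SE, adjusted p = 3.24e-05, edgeR). Dcn followed the muscle fiber list closely: per 1000 counts on that list it lay between 1.70 and 5.40 in all 11 lines, a 3.19-fold spread, against a 26.7-fold range in CPM. Whether the muscle RNA carries this Dcn was not tested.

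Bgn encodes biglycan, the nearest relative of decorin, and lies at chrX:73483602-73495933, just downstream of the GC-rich window shown above. Its levels were 59.2, 630, 126, 43.9, 60.9, 497, and 1235 CPM in S1 to S7. They were 2638, 3229, 1752, and 3613 CPM in S8 to S11. The sets did not overlap, and the direction was the opposite of Dcn, with a log2 difference of 2.64 ± 0.79 (adjusted p = 0.0131, edgeR). Within S1 to S7, F318 ROV, F326 splenic tumor, and F319 ROV stood above the other lines. Bgn moved with the sum of a list of 9 fibroblast genes. That sum was 1361 to 16413 CPM in S1 to S7 and 21027 to 37021 CPM in S8 to S11. Of the 9 genes, 5 were higher in every line of S8 to S11, Col1a1 and Fn1 among them, and the others overlapped. Col1a2 (5.21 CPM) and Thy1 (0.148 CPM) had their lowest level of all 11 lines in the F319 uterus line. Per 1000 counts on that list, Bgn ranged from 22.1 to 119, or 5.38-fold, against 82.4-fold in CPM. The part of fibroblast content in the difference was not tested. Among the 7 ovary lines alone, a comparison chosen after the data were seen, the log2 difference was 2.68 and missed the threshold (adjusted p = 0.0763, edgeR). It was 1.38 with mouse as a block (adjusted p = 0.384).

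Aspn, also of class I, encodes asporin, which competes with decorin for collagen but lacks the attachment site for the sugar chain that decorin carries. It lies at chr13:49544443-49567565, where its exons overlap those of Cenpp on the opposite strand, and the strand setting of the counting was not stated. Aspn was at 3.80, 39.2, 5.06, 10.1, 12.5, 5.01, and 8.11 CPM in S1 to S7 and at 28.9, 59.0, 358, and 2.65 CPM in S8 to S11. The highest and the lowest level of all 11 lines were both in uterus lines, F319 and F333. The log2 difference between the sets was 2.76 ± 0.95 (adjusted p = 0.0246, edgeR). Without the F319 uterus line it was 0.91 and missed the threshold (adjusted p = 0.371), whereas among the 7 ovary lines alone it was 2.43 and passed (adjusted p = 0.00526). Without F326 splenic tumor, the highest line of S1 to S7, it was 3.48 (adjusted p = 0.00864), and with mouse as a block 4.28 (adjusted p = 0.0339). Within the mice that join the sets, Aspn differed by 5.90 in F319 and 2.72 in F318 (log2 of CPM + 1).

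Lum encodes lumican, a keratan sulfate proteoglycan of class II that keeps collagen fibrils thin, and lies next to Dcn at chr10:97565128-97572703. It was low throughout. Its levels were 4.76, 7.59, 2.72, 17.6, 24.9, 14.4, and 4.51 CPM in S1 to S7 and 1.49, 0.175, 0.407, and 1.25 CPM in S8 to S11. The value in F318 LOV rests on 4 counts (95% Wilson interval 0.0679 to 0.449 CPM), close to the floor of detection. The sets did not overlap, and the log2 difference of -4.08 ± 0.84 (adjusted p = 0.00149, edgeR) had the same direction as that of Dcn.

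Fmod and Prelp, on chromosome 1, encode fibromodulin and PRELP, class II members that bind collagen. Fmod (chr1:134037254-134048277) was at 16.0, 27.1, 13.4, 180, 204, 58.1, and 23.0 CPM in S1 to S7 and at 85.0, 159, 30.8, and 41.5 CPM in S8 to S11. Its 2 highest levels were in F361 and F326 ROV, and the sets overlapped. The log2 difference of -0.34 ± 0.82 (adjusted p = 0.737, edgeR) turned positive under other settings, at 0.085 with library totals, 0.70 among the ovary lines alone, 0.71 with mouse as a block, 0.025 without F326 ROV, and 0.19 without F361. Prelp (chr1:133910304-133921414, which shares exon bases with Gm15851 on the opposite strand) lay between 3.54 CPM (F364 LOV) and 39.1 CPM (F326 ROV) within S1 to S7. In S8 to S11 it was at 114, 29.3, 104, and 4.55 CPM, and the difference of 1.07 ± 0.75 did not pass (adjusted p = 0.239). Over the 18 alternatives this difference ran from 0.63 to 1.64 and passed in none.

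Ogn encodes osteoglycin, a class III member also called mimecan, and lies at chr13:49608046-49624501. It was at 12.0, 99.7, 11.6, 16.4, 24.6, 22.6, and 21.8 CPM in S1 to S7 and at 159, 82.8, 491, and 29.8 CPM in S8 to S11. Only F326 splenic tumor reached into the range of the second set. The log2 difference was 2.23 ± 0.72 (adjusted p = 0.0184, edgeR), and it was 1.20 (adjusted p = 0.153) without the F319 uterus line and 2.99 (adjusted p = 0.00174) without F326 splenic tumor. Among the 7 ovary lines, F339 ROV and F318 LOV were both above the other 5, with a log2 difference of 2.51 (adjusted p = 0.00374). Blocking by mouse gave 2.96, which missed the threshold (adjusted p = 0.0771).

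Vcan encodes versican, which carries chondroitin sulfate, and lies on the minus strand at chr13:89655312-89742509. It was at 10.9, 30.6, 13.6, 8.15, 3.17, 4.48, and 173 CPM in S1 to S7 and at 280, 198, 398, and 90.7 CPM in S8 to S11. F318 ROV was the only line of the first set within the range of the second. The log2 difference was 2.54 ± 0.90 (adjusted p = 0.0287, edgeR), and the call was lost without F364 ROV (adjusted p = 0.0513), F364 LOV (0.0520), F339 ROV (0.0523), or the F319 uterus line (0.0750). Without F318 ROV it was larger, at 3.89 (adjusted p = 0.000341). Among the ovary lines alone it was 2.30 (adjusted p = 0.155), and with mouse as a block 3.06 (adjusted p = 0.276), also short of the threshold.

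Hspg2 lies at chr4:137468769-137570630 and was the steadiest of the 10 genes, with a 6.22-fold range over the 11 lines. It was at 255, 195, 334, 360, 210, 626, and 565 CPM in S1 to S7. In S8 to S11 it was at 1211, 894, 678, and 1174 CPM. The sets did not overlap, though F319 ROV at 626 CPM and the F319 uterus line at 678 CPM came close, and the log2 difference was 1.13 ± 0.31 (adjusted p = 0.00773, edgeR). The blocked fit by mouse gave 0.16 (adjusted p = 0.805), short of the threshold.

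Sdc2 (chr15:32920723-33034935) separated the sets by a wide gap. It was at 19.2, 54.1, 21.0, 30.6, 20.6, 54.0, and 69.5 CPM in S1 to S7 and at 358, 320, 404, and 276 CPM in S8 to S11. The 4 lines of the second set varied little beside the gap, and the log2 difference was 2.81 ± 0.32 (adjusted p = 5.94e-05, edgeR). Per 1000 counts on the fibroblast list Sdc2 ranged 4.54-fold, against 21.0-fold in CPM. That ratio also narrowed the range of Vcan (20.5-fold against 126-fold) and Ogn (23.8-fold against 42.4-fold). It widened the range of Hspg2 (7.34-fold against 6.22-fold), Fmod (108 against 15.2), and Prelp (182 against 32.0). The same was seen for Aspn (195 against 135), Dcn (634 against 26.7), and Lum (3612 against 143). The difference of Sdc2 passed in all 18 alternatives, from 2.33 with mouse as a block to 3.14, as did those of Dcn and Lum. How many of all genes did so was not counted.

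**Figure D3:**
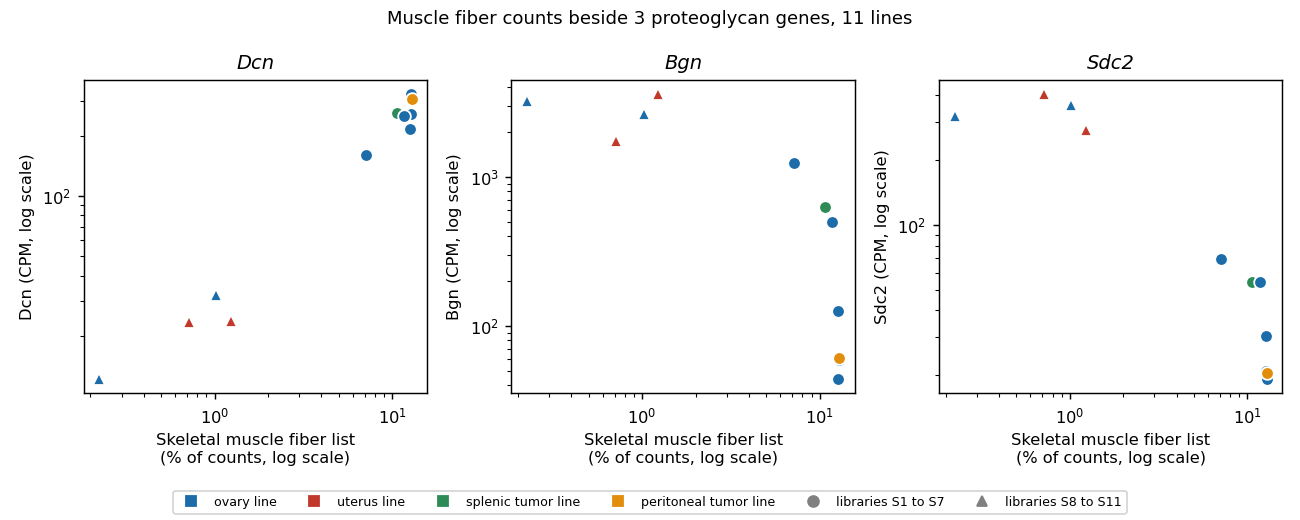
The 3 panels plot the level of Dcn, Bgn, and Sdc2 (CPM, log scale) against the share of counts on the skeletal muscle fiber list (percent, log scale) in the 11 lines, with circles for S1 to S7 and triangles for S8 to S11. Dcn is highest where the muscle share is 7.14% to 12.9%, whereas Bgn and Sdc2 are highest where it is 0.224% to 1.23%.

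The second comparison set the 2 uterus lines against the 7 ovary lines, the contrast of organs that the design holds. No proteoglycan gene passed, and no gene of the table did: edgeR called 0 of 17446 genes (0%), with 2308 (13.2%) at an unadjusted p under 0.05. DESeq2 called 1315 genes, among them Dcn. For none of the 10 genes did the 2 groups separate in CPM, as they did for 8.04% of all genes (5.04% with the uterus lines higher and 3% with them lower). Bgn was at 1118 ± 1318 CPM in the ovary lines (SD, n = 7), and the uterus lines at 1752 and 3613 CPM lay near F339 ROV and F318 LOV. Dcn was at 178 ± 118 CPM in the ovary lines and at 23.3 and 23.6 CPM in the uterus lines, a log2 difference of -3.22 ± 1.27 (adjusted p = 0.359, edgeR). With library set as a term in the fit, this difference was 0.17, and 0 genes passed (847 at an unadjusted p under 0.05, none of them among the 10). Ogn and Aspn, at an unadjusted p under 0.05 like Dcn, differed by 2.38 ± 0.97 and 3.26 ± 1.16 (both adjusted p = 0.359). With library set as a term they were 1.10 and 2.003, and without the F319 uterus line -0.56 and -2.62. With mouse as a block, a fit that only the 2 lines of F319 inform on organ, they were 4.17 and 5.88, and Vcan moved from 1.26 to 6.20 (unadjusted p = 0.000269, all 3 adjusted p = 0.470, edgeR). These 2 lines also lie in different library sets, so that organ and set cannot be told apart in the blocked fit. With library set as a term Vcan was at 0.043.

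Within S8 to S11, where 2 uterus lines met F339 ROV and F318 LOV, the mean differences between organs were small for some genes. The log2 differences were 0.12 ± 0.55 for Dcn, -0.083 ± 0.50 for Bgn, -0.14 ± 0.44 for Hspg2, and -0.00014 ± 0.31 for Sdc2. They were larger, with wide errors, for Aspn (1.95 ± 1.77) and Ogn (1.04 ± 1.15). With 2 lines on each side, differences within these errors were not detectable. Fmod was the one gene whose groups did not overlap, at 30.8 and 41.5 CPM in the uterus lines against 85.0 and 159 CPM in the ovary lines, a separation seen in 26.4% of all genes (12.3% with the uterus lines above and 14.1% with them below). Its log2 difference was -1.73 ± 0.46 (unadjusted p = 0.0126, adjusted p = 1, edgeR). EdgeR called 0 of 15566 genes (0%) here, with 522 (3.35%) at an unadjusted p under 0.05, and DESeq2 called 137, none of them among the 10. For Aspn, Ogn, Vcan (398 and 90.7 CPM), and Sdc2 (404 and 276 CPM), the F319 uterus line was the highest of all lines and the F333 uterus line the lowest of the 4, with both ovary lines between them. Bgn had the opposite order, with F333 highest at 3613 CPM and F319 lowest of the 4 at 1752 CPM.

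The third comparison set the splenic tumor line of F326 and the peritoneal tumor line of F361 against the 5 ovary lines within S1 to S7. Both tumor lines were above the 5 ovary lines for Ogn (99.7 and 24.6 CPM against 11.6 to 22.6 CPM) and for Aspn (39.2 and 12.5 CPM against 3.80 to 10.1 CPM). Both were below them for Hspg2, at 195 and 210 CPM against 255 to 626 CPM. Such a separation was seen in 16.9% of all genes, 4.28% upward and 12.7% downward. The log2 differences were 2.05 ± 0.45 for Ogn, 2.16 ± 0.48 for Aspn (both adjusted p = 0.249, edgeR), and -0.91 ± 0.34 for Hspg2 (adjusted p = 0.459). EdgeR called 0 of 16299 genes (0%), with 1636 (10%) at an unadjusted p under 0.05, and DESeq2 called 346, among them Ogn and Aspn. Without the splenic tumor line the differences of Ogn and Aspn were 0.70 and 1.11. The tumor lines lay far apart for Bgn (630 and 60.9 CPM) and Fmod (27.1 and 204 CPM), and closer for Dcn (261 and 304 CPM) and Prelp (27.3 and 37.8 CPM).

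**Figure D4:**
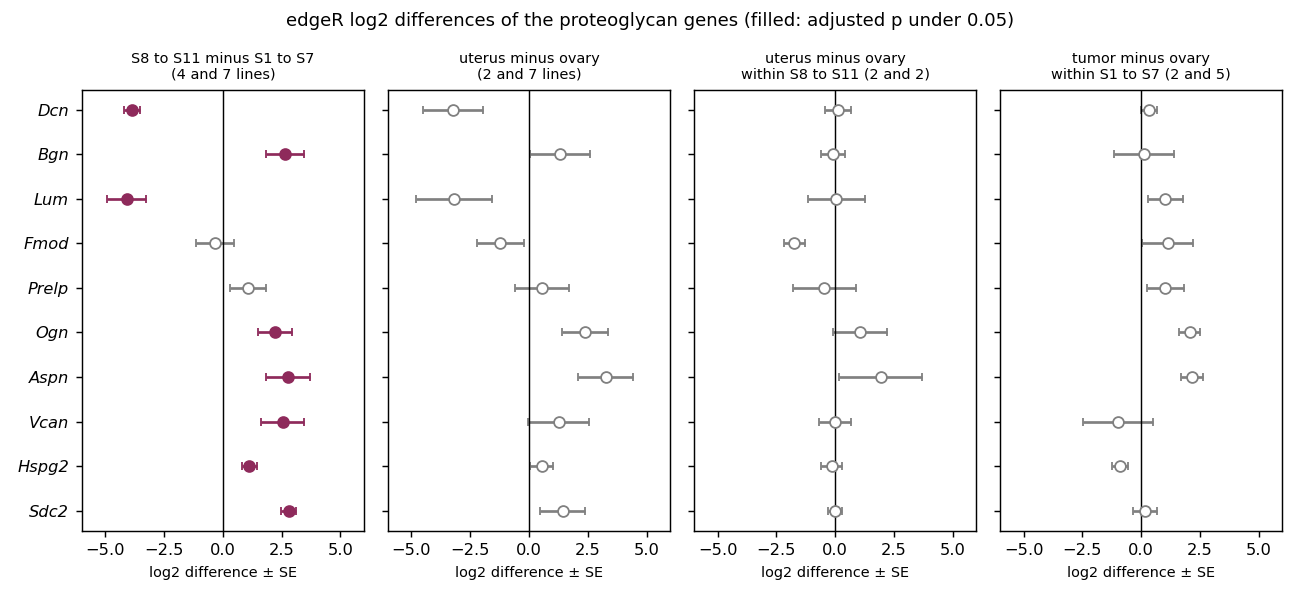
Points give the edgeR log2 difference of each gene with its SE as the bar, in 4 comparisons, and filled points passed an adjusted p under 0.05. Filled points appear in the first panel only, for 8 of the 10 genes. Within S8 to S11 the points farthest from 0 are Aspn at 1.95, Fmod at -1.73, and Ogn at 1.04.

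Several of the small leucine-rich genes lie side by side in the genome, and their levels were compared with those of their neighbors. On chromosome 13, Ecm2, Aspn, Omd, and Ogn follow one another with gaps of 11.7, 14.9, and 15.2 kb. Aspn (358 CPM), Omd (26.7 CPM), and Ogn (491 CPM) all had their highest level in the F319 uterus line, where Omd, which encodes osteomodulin, was otherwise at most 1.69 CPM. Ecm2, the outer gene of the row, was highest in F361 at 18.8 CPM. Aspn was also nearer to Ogn than to any other of the 11040 genes with a median of at least 5 CPM, a filter that Omd missed, with a root mean square difference of 0.79 between their centered log2(CPM + 1) profiles over the 11 lines.

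On chromosome 10, Dcn, Lum, Kera, and Epyc are spaced by 47.0, 34.2, and 30.4 kb. Dcn and Lum, the expressed pair, differed by 0.80 in the same measure. Kera, which encodes keratocan of the cornea, was at 4.87 CPM in F326 ROV and 8.03 CPM in F361 and at most 0.358 CPM elsewhere. The same 2 lines had the highest Fmod and Lum, and also the highest Ecm2 (17.3 and 18.8 CPM) and Chad (22.0 and 24.5 CPM), which encodes the cartilage protein chondroadherin. On chromosome 1, Prelp lies 2.3 kb from Optc and 115.8 kb from Fmod. Prelp and Fmod did not share their highest line, and their profiles differed by 1.36.

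**Figure D5:**
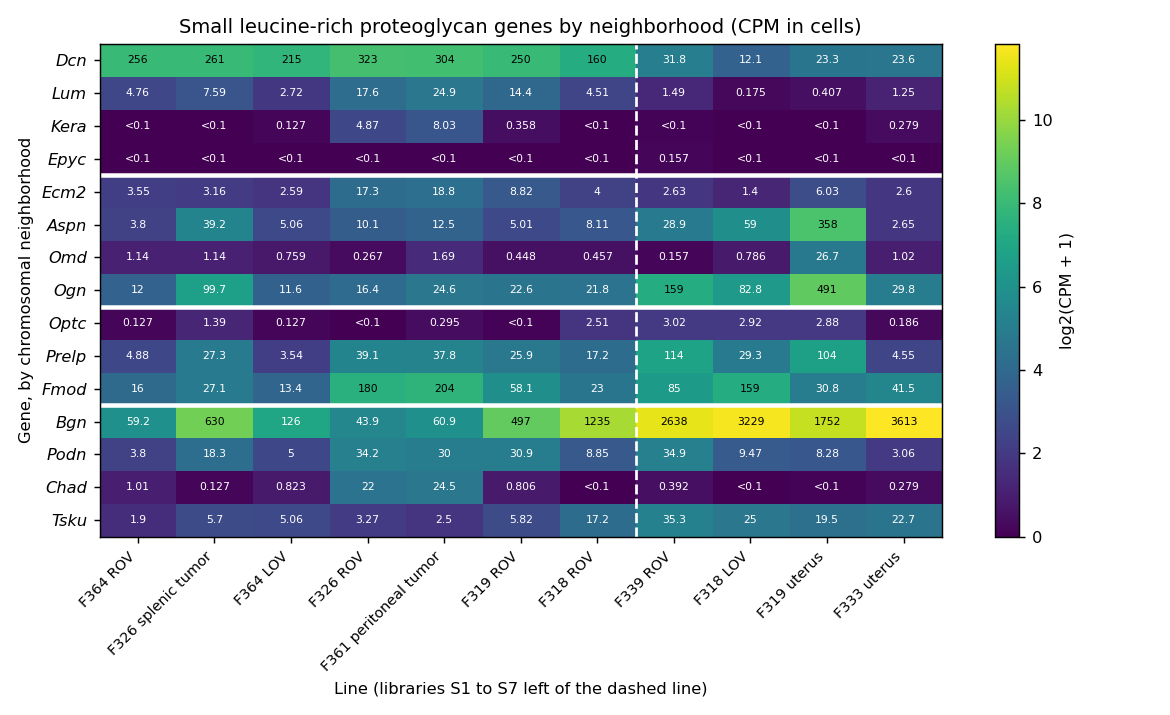
The cells give the CPM of 15 small leucine-rich proteoglycan genes in the 11 lines, colored by log2(CPM + 1), with white lines between chromosomal neighborhoods and a dashed line between S7 and S8. Aspn, Omd, and Ogn peak together in the F319 uterus line at 358, 26.7, and 491 CPM, and Lum, Kera, Ecm2, Fmod, and Chad are highest in F326 ROV and F361.

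Lines from 1 mouse were compared gene by gene. F364 ROV and F364 LOV were the most alike, with a median absolute log2 ratio of 0.32 over the 10 genes (log2 of CPM + 1), and their largest gap was in Bgn. The 2 lines of F326 had a median of 1.45, with Bgn at 630 CPM in the splenic tumor line and 43.9 CPM in F326 ROV and Fmod in the opposite order at 27.1 and 180 CPM. The pairs of F318 and F319, which each span the library sets, had medians of 2.03 and 3.12. Lines of different mice had a median of 1.03 within S1 to S7 (19 pairs), 0.90 within S8 to S11 (6 pairs), and 2.64 across the sets (26 pairs). There was no replicate of any pair.

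Genes with the most similar profiles were sought among 11040 genes with a median of at least 5 CPM. For Dcn they were Fem1a, at a root mean square difference of 0.19, and Stard10 at 0.23. For Bgn they were Cnn1, which encodes a smooth muscle calponin, at 0.43, and Col5a2, which encodes a chain of type V collagen, at 0.49. Hspg2 was nearest to Dnajb1 (0.15) and Exog (0.21), Sdc2 to Emp2 (0.39) and Zc2hc1a (0.41), and Lum to Meox2 (0.39) and 9330159F19Rik (0.42). The others had no gene as close: Fmod was nearest to Pde4a (0.64) and Dok4 (0.73), Ogn to Rab32 (0.73) and Ifi204 (0.77), Vcan to Dnm3os (0.76) and Tmeff1 (0.83), and Prelp to Gbp2 (0.84) and Tspan9 (0.89). The second nearest gene to Aspn was Lpar1 (0.84). The points are libraries of the same 2 sets, so that any gene that splits them in the same way comes close.

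Further lists covered the other small leucine-rich genes and the enzymes that build and cut proteoglycans. All counts are from edgeR between S8 to S11 and S1 to S7, to be read against 28.6% higher and 29.9% lower among all genes. Calls kept with mouse as a block are given for each list, where 5.45% and 13.5% of all genes passed. Of 8 other small leucine-rich genes tested, 3 were higher in S8 to S11 (Omd by 2.62, Podnl1 by 2.45, and Tsku by 1.81 on the log2 scale) and 2 were lower (Chad at -5.62 and Ecm2 at -1.80). Only Tsku, which encodes tsukushi, kept its call whichever line was left out. Podnl1 lost its call without the F333 uterus line, and Chad without F318 LOV or the F319 uterus line. Omd lost it without any of 7 lines (both lines of F364, of F326, and of F319, and F318 ROV) and Ecm2 without any of 6 (F326 ROV, F361, F319 ROV, F339 ROV, F318 LOV, or F333 uterus). Among the ovary lines alone 4 of the 5 calls were lost, all but that of Tsku, Ecm2 also lost its call with library totals and Omd with DESeq2, and none of the 5 was kept with mouse as a block. Podn had the highest median in this list, at 9.47 CPM, and Epyc was at 0 in most lines.

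The enzymes of chondroitin and dermatan sulfate, the chains that decorin, biglycan, and versican carry, leaned toward S8 to S11. Of 15 tested, 9 were higher and 1 lower, with a median log2 difference of 1.57, and 9 of the 10 calls held whichever line was left out, Chst3 being the exception, which was also lost among the ovary lines alone. With mouse as a block 3 calls were kept, Chsy1, Csgalnact1, and the sulfotransferase gene Ust. Csgalnact1, which starts chondroitin synthesis, was higher by 2.77, and Chsy1, which extends the chain, by 2.75. Dse, the epimerase that turns chondroitin into dermatan sulfate, was at 5.14 to 54.9 CPM in S1 to S7 and at 104 to 157 CPM in S8 to S11. Chst15, a sulfotransferase, was lower by a log2 difference of -2.03. Chpf had the highest median of the list, 56.8 CPM, and Chst13 the lowest, 0.175 CPM.

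Of 18 heparan sulfate enzymes tested, 7 were higher and 2 lower, with a median of 0.91, and 7 of the 9 calls held whichever line was left out. The other two, Extl2 and Sulf1, were also lost among the ovary lines alone. The 3 calls of Glce, Extl1, and Hs3st5 were kept with mouse as a block, and Hs3st1 was lower there. Glce, the glucuronyl epimerase, was higher by 2.78 and Hpse, the heparanase that cuts the chains, by 2.25. Extl1 was lower at -4.90, with 31.5 to 125 CPM in S1 to S7 against 1.75 to 5.33 CPM in S8 to S11, and Hs3st5 at -4.72. Ext2, a subunit of the chain polymerase, had the highest median, 121 CPM, and Hs6st3 was at 0 in most lines. Of the 6 enzymes of the linker that joins chain to core protein, B4galt7 was higher (0.64) and B3gat3 lower (-0.84). The first call was lost among the ovary lines alone and without any of 7 lines (F364 ROV, F326 splenic tumor, F364 LOV, F326 ROV, F318 LOV, and both uterus lines), and the second with library totals, and neither was kept with mouse as a block. Fam20b had the highest median of the linker list at 73.7 CPM, and B3galt6 the lowest.

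Of 4 keratan sulfate enzymes tested, Chst2 (2.64), Chst1 (2.45), and B4galt1 (0.82) were higher, the last not without F318 LOV or among the ovary lines alone, and Chst1 kept its call with mouse as a block. B4galt1 had the highest median, 106 CPM, and Chst4 was at 0 in most lines. Among hyaluronan-binding partners of versican, Cd44, the hyaluronan receptor, reached at most 131 CPM in S1 to S7 and ran from 209 to 831 CPM in S8 to S11, a log2 difference of 2.71. Hapln4 was higher (3.67) and Hapln3 lower (-3.17, not without F319 ROV), both at low levels, and Ncan was at 0 in most lines. Of 6 genes of hyaluronan synthesis and breakdown, Hmmr, a hyaluronan-binding protein of the mitotic spindle, was higher (2.79). Cd44 and Hmmr kept their calls with mouse as a block, and Hapln3 and Hapln4 did not, that of Hapln4 being lost among the ovary lines alone as well. Cemip was lower in that fit, although its median was 25.8 CPM in S1 to S7 and 244 CPM in S8 to S11. Its highest lines, F339 ROV (742 CPM) and F333 uterus (483 CPM), came from mice with 1 line each, which do not inform the block. Over all lines Cemip had the highest median of this list, 25.8 CPM, and Has1 the lowest, 0.371 CPM.

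Of 17 other cell surface and basement membrane proteoglycans tested, 4 were higher and 4 lower. Sdc1 and Sdc3, relatives of Sdc2, were higher by 2.58 and 2.35. Gpc3, a glypican, was lower at -4.58, and Srgn, the granule proteoglycan of blood cells, at -4.20. Of these 8 calls 5 held whichever line was left out, and 3 were kept with mouse as a block, Gpc3, Srgn, and Spock2, all lower. The call of Gpc1 was lost among the ovary lines alone and with library totals. Gpc1 had the highest median, 327 CPM, and Spock1 was at 0 in most lines. Among 9 proteases that cut proteoglycans, the metalloproteases Mmp14 (2.10) and Mmp2 (2.06) were higher, and Adamts15 (-7.08), Adamts20 (-4.38), and Adamts9 (-3.64) were lower. The 3 Adamts calls were kept with mouse as a block, and those of Mmp14 and Mmp2 were not. Mmp14 also lost its call among the ovary lines alone. Adamts15 was under the floor of 3 counts in all 4 lines of S8 to S11, so that its fitted value is no measure of size, and Chad, Hs3st5, Gpc3, Hapln3, and Adamts20 were near the floor there. Mmp14 had the highest median, 207 CPM, and Adamts20 the lowest, 1.14 CPM.

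Markers of other cell types moved with the same split. Of 8 endothelial and 8 macrophage and blood genes tested, 6 of each were lower in S8 to S11, as were 6 of 6 adipocyte genes and 20 of 20 muscle fiber genes. The summed endothelial list was 175 to 490 CPM in S1 to S7 and 2.97 to 227 CPM in S8 to S11, where F339 ROV alone was above 20.4 CPM, mostly through Emcn (154 CPM) and Cdh5 (61.9 CPM). The adipocyte list summed to 153 to 357 CPM and 2.66 to 38.3 CPM. The macrophage and blood list summed to 69.1 to 139 CPM and 8.73 to 19.4 CPM. Of 9 fibroblast genes, 5 were higher and none lower (Pdgfrb, Col1a1, Col3a1, Fn1, and Vim). The calls of Col3a1, Fn1, and Vim held whichever line was left out, that of Col1a1 was lost without any of 8 lines (F364 LOV, F326 ROV, F361, F319 ROV, F339 ROV, F318 LOV, or either uterus line), and that of Pdgfrb without any of 4 (F326 ROV, F339 ROV, or either uterus line). Among the ovary lines alone Col1a1, Col3a1, and Pdgfrb were not called, and with mouse as a block 0 of the 5 calls were kept. The epithelial list summed to 7.14 to 169 CPM and 13.3 to 46.0 CPM, and of 6 genes tested 2 were lower, Krt18 and Ovgp1, both of which lost their call among the ovary lines alone and with mouse as a block. With that block 20 muscle fiber, 3 adipocyte, 7 endothelial, and 4 macrophage and blood genes were lower. The part of these cell types in the proteoglycan differences was not tested.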

How the data were processed

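Polyadenylated RNA of 11 cell lines was sequenced in paired-end libraries made with a directional kit. The authors used STAR for alignment to GRCm38 (mm10), SAMtools RmDup against PCR duplicates, and featureCounts for assigning reads to genes, and deposited the raw counts without normalization. Removing duplicates by position can lower the counts of highly expressed genes. The titles of the samples gave the groups, and their descriptions the library numbers S1 to S11. CPM, RPKM (exon lengths from GENCODE M21), and Wilson intervals at 95% confidence, which cover counting error only, were computed from the counts. No 2 lines had identical columns. Differences were tested with edgeR 4.0.16 (quasi-likelihood test, TMM scaling, filterByExpr, Benjamini-Hochberg adjusted p under 0.05 over all genes tested), and DESeq2 1.42.0 was an alternative. The fits were tested on simulated counts. R 4.3.3, Python 3.11.15, pandas 2.3.3, and matplotlib 3.10.9 were used.

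All 10 members were named. From each other list, genes that passed were named (all if 5 or fewer, otherwise the 2 largest in each direction), with the genes of the highest and lowest median CPM, and for each member the 2 genes with the nearest profile. Marker lists were summarised by sums and counts. The members, lists, and library split were chosen with earlier results of these data known. Alternatives were the normalization, the filter, muscle fiber and Y-linked genes left out, library set as a term, pseudocounts, and each line left out; the ovary lines alone and mouse as a block (from the mouse numbers in the titles, which pair lines of 1 mouse) were added after seeing the data. Upstream windows were RefSeq sequences on GRCm38. Transgene reads, copy number, and the human cell lines were not analysed here.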

Additional observations from a re-analysis of the deposited data

How the results depend on the processing

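Depth set no limit for the proteoglycan genes other than Lum in S8 to S11, whereas 1 library per line and 2 lines in some groups did. Of the uncalled differences, 11 of 160 over the alternatives between uterus and ovary lines were of the opposite sign, as were 18 of 90 within S8 to S11, and 15 of 130 between tumor and ovary lines. The cause was not tested.

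With each mouse as a block, added after the data were seen, the library sets differed in 3028 genes in place of 9337 (869 higher and 2159 lower) and in 4 of the 10 in place of 8, and Fmod was at 0.71. For uterus against ovary lines, which F319 alone joins, the block left 0 calls, turned Hspg2 to -0.16, and moved Vcan from 1.26 to 6.20, Aspn from 3.26 to 5.88, Ogn from 2.38 to 4.17, Lum from -3.20 to -5.39, Sdc2 from 1.43 to 2.63, and Prelp from 0.54 to 1.73. For tumor against ovary lines, which F326 alone joins, it left 0 calls and turned Dcn to -0.22, Lum to -1.13, Vcan to 1.99, Fmod to -2.65, and Prelp to -0.43, and moved Bgn from 0.11 to 3.93, Sdc2 from 0.15 to 0.91, and Ogn from 2.05 to 2.70. These blocked fits had 2 and 1 residual degrees of freedom, so that their 0 calls say nothing of stability. In the first, the lines of F319 differ in library set as well as in organ. The block changed no call other than those given here and beside the results. Within S8 to S11 the 4 lines came from 4 mice, and no block could be fitted. Between uterus and ovary lines, edgeR's 0 calls became 1315 with DESeq2 (1 of the 10 genes) and 2 without a filter on low counts, and were 0 to 1 with each line left out. With library set as a term, the log2 differences turned to 0.17 for Dcn, 0.096 for Lum, -0.029 for Bgn, -0.41 for Prelp, and -0.088 for Hspg2, and shrank to 0.053 for Sdc2, 0.043 for Vcan, 1.10 for Ogn, and 2.003 for Aspn. With each line left out they ranged from -0.0040 to 1.94 for Vcan, -0.56 to 3.29 for Ogn, -2.82 to 1.48 for Prelp, -2.62 to 4.25 for Aspn, and -0.025 to 0.97 for Hspg2. Within S8 to S11, the 0 calls became 137 with DESeq2 and 604 without a filter (2 of the 10 genes, Fmod and Aspn), for a reason not tested. Library totals gave -0.018 for Lum, 0.033 for Vcan, and 0.00099 for Sdc2. Leaving out each line gave -0.39 to 0.93 for Dcn, -1.09 to 2.24 for Lum, -0.83 to 0.40 for Bgn, -1.29 to 0.66 for Vcan, -1.91 to 1.95 for Ogn, -3.85 to 0.77 for Prelp, -3.95 to 2.93 for Aspn, -0.71 to 0.27 for Hspg2, and -0.19 to 0.17 for Sdc2. Between the library sets, 5 to 8 of the 10 genes passed with each line left out, beside 8526 to 9311 of all genes. The 5 were without the F319 uterus line, where 8875 of all 16238 genes passed. Among the ovary lines alone 6 passed, beside 6757 of all 16610 genes. Fmod ran from -0.91 to 0.19 with each line left out, at 0.085 with library totals and 0.70 in the ovary lines. For tumor against ovary lines, DESeq2 called 346 genes (2 of the 10), and each line left out gave 0 to 1. Library totals gave -0.18 for Bgn and -0.057 for Sdc2. Leaving out each line gave -0.070 to 1.63 for Lum, -2.41 to 1.09 for Bgn, -3.43 to 0.92 for Vcan, -0.98 to 2.29 for Fmod, and -0.72 to 0.68 for Sdc2. The median summed level of 1558 CPM was 4945 CPM in S8 to S11 alone.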
